A study of Mus musculus with 16 samples.

Results

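Expression of 10 genes was followed across bone marrow derived macrophages (BMDMs) of male C57BL/6J mice aged 8 weeks. These members were 9 dual specificity phosphatases (Dusp1, Dusp2, Dusp3, Dusp4, Dusp5, Dusp6, Dusp7, Dusp10 and Dusp16) and tristetraprolin (Zfp36). Members were taken by gene symbol, and all 10 of them were found among the 22287 genes of the count matrix and passed the filter on low counts, which kept 12514 genes. Bone marrow cells were grown for 7 days with GM-CSF (20 ng/ml, GM) or M-CSF (50 ng/ml, M), the growth factors that drive granulocyte-macrophage and macrophage differentiation. The dish was polystyrene treated for tissue culture (TC) or left untreated (noTC), and cells then received vehicle or lipopolysaccharide (LPS, the endotoxin of gram-negative bacteria, 100 ng/ml) for 3 h. This gave 8 groups of 2 libraries each and 16 libraries in all: GM-TC and GM-noTC, M-TC and M-noTC, and their LPS-treated counterparts, written with -LPS. The study calls the 2 libraries of a group biological replicates, but whether they came from separate mice is not given in the sources used here, so p-values measure only the spread between these libraries.

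MAP kinases (ERK, JNK and p38) carry the signal of Toll-like receptor 4 and of growth factor receptors, and are active only while phosphorylated on a threonine and a tyrosine. Dual specificity phosphatases remove both phosphates. Dusp1, Dusp2, Dusp4 and Dusp5 are inducible and act in the nucleus, with Dusp5 specific for ERK, whereas Dusp6 and Dusp7 act on ERK in the cytoplasm, Dusp10 and Dusp16 act mainly on JNK and p38, and Dusp3 is a small atypical member without the MAP kinase docking domain. Tristetraprolin is an RNA-binding protein that recruits deadenylases to AU-rich elements in the 3′ untranslated region of cytokine messages, and its own message carries such elements. Dusp1 and Zfp36 are known as brakes on cytokine output of LPS-treated macrophages.

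Promoter stretches are shown for the 4 members in which a motif of interest matched upstream of the start, since MAP kinases are known to act through CREB/ATF factors at cAMP response elements and through serum response factor at CArG boxes. RefSeq windows of build GRCm38.p6, from 250 bases before to 50 after the start of transcription, matched 9 of the 10 members, and the stretches below lie upstream of the start, 5′ to 3′ on the strand of the gene. Capitals mark the cAMP response element core TGACG on either strand, or a CArG box. The stretch of Dusp1 is chr17:26508588-26508683 (minus strand, bases -211 to -116), that of Dusp16 is chr6:134792674-134792718 (minus, -90 to -46), that of Dusp5 is chr19:53529043-53529114 (plus, -102 to -31) and that of Zfp36 is chr7:28379257-28379306 (minus, -78 to -29).
Dusp1: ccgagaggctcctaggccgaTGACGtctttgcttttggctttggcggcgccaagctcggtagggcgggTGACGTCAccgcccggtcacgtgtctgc
Dusp16: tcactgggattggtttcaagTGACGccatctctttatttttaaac
Dusp5: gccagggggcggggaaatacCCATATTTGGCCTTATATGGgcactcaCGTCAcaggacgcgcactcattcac
Zfp36: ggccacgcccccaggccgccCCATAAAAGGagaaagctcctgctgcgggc
TGACG matched 3 times in the window of Dusp1, where 2 of the matches are the 2 strands of a single palindrome, and once each in those of Dusp2, Dusp5 and Dusp16. Of all 32851 windows of the same length 20.8% held it, and of the 12622 windows of tested genes 30.1%, beside 4 of the 9 members. A CArG box matched 2 times in the window of Dusp5 and once in that of Zfp36, against 1.63% of all windows and 1.26% of those of tested genes. The AP-1 motif TGANTCA (7.81% of all windows, 5.43% of those of tested genes) and the NF-kB site (8.46% and 10.3%), both searched on both strands, matched in none of the 9 windows, which says only that these letters are absent from this window.

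The AU-rich element that tristetraprolin recognises was read from the 3′ untranslated regions of GENCODE vM21 transcripts, since 1 member of the group binds it and others carry it. The core TATTTAT occurred 3 times in Dusp1 (region of 693 bases), 3 times in Zfp36 (777 bases) and once in Dusp2 (584 bases), and 0 times in the other 7 members. Of 12435 tested genes with such a region, 30.4% held at least 1 core and 4.18% held 3 or more, so that 3 of 10 members with a core is close to the share of the background. A 27-base window around 1 core of each gene is given below with the core in capitals.
Dusp1: agctggtcctTATTTATttaacacccc
Zfp36: gtgggcccttTATTTATgacgacttta
Dusp2: cagcactttaTATTTATatagaacatt

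Levels are given as CPM, the count of a gene relative to the library size after TMM scaling, which sets library sizes so that most genes do not differ. Total counts ran from 17527802 to 31458363 per library, and 3 counts, taken as the limit of detection, correspond to 0.0697 to 0.174 CPM, which every library exceeded for every member (lowest, 7 counts of Dusp2). That limit covers counting error only. Macrophage markers were present in all libraries (8 of 8 genes), at a summed level of 37900 to 47800 CPM in GM and 20500 to 30300 in M libraries. Their sum was higher with LPS in every culture condition. In M cells it was lower on noTC, at 20500 to 21700 CPM against 25100 to 25600 on TC without LPS. With LPS it was 23200 to 24700 against 29500 to 30300. Lymphocyte markers summed to at most 1.09 CPM. Neutrophil markers summed to 0.337 to 2.05 CPM in M libraries and 12.7 to 44.7 CPM in GM libraries, and so moved with the growth factor comparisons. So did dendritic cell markers (908 to 1090 CPM in GM, 15.6 to 62.6 in M) and those of mast cells or basophils (18.2 to 32.8 and 3.25 to 8.22). In GM cells without LPS, mast cell or basophil markers also moved with the dish, at 28.4 to 32.8 CPM on TC and 18.5 to 19.6 on noTC. In M cells dendritic cell markers also moved with the dish, from 15.6 to 17 CPM on TC to 47.6 to 48.1 on noTC without LPS and from 24.7 to 26.8 to 58 to 62.6 with it, and in GM cells neutrophil markers also moved with LPS, from 12.7 to 16.7 to 28.4 to 36.3 CPM on TC and from 20.2 to 24.1 to 34 to 44.7 on noTC. Fibroblast markers moved with LPS (1.35 to 6.11 CPM without, 22.7 to 49 with), as did endothelial ones (12.2 to 14.9 and 44.1 to 117). Heart muscle markers (10 genes) summed to 24.9 to 64.9 CPM in the TC libraries without LPS, and to 0.0517 to 0.872 CPM in all the others, so that they moved with both the LPS and the dish comparisons. The part of any of these in the results was not tested. The 2 libraries of GM-TC differed more from each other than those of any other group, with a chi-square per degree of freedom over genes of 12.9 against 1.92 to 5.27, while the fit gave all groups 1 spread. Without GM-TC replicate 1 or replicate 2, the members called were 9 and 10 for LPS in GM-TC (9 with both), 7 and 8 for M minus GM on TC (7) and 5 and 3 for the dish in GM cells (4). In bulk RNA, fewer cells of a type and less RNA per cell cannot be told apart.

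**Figure D1:**
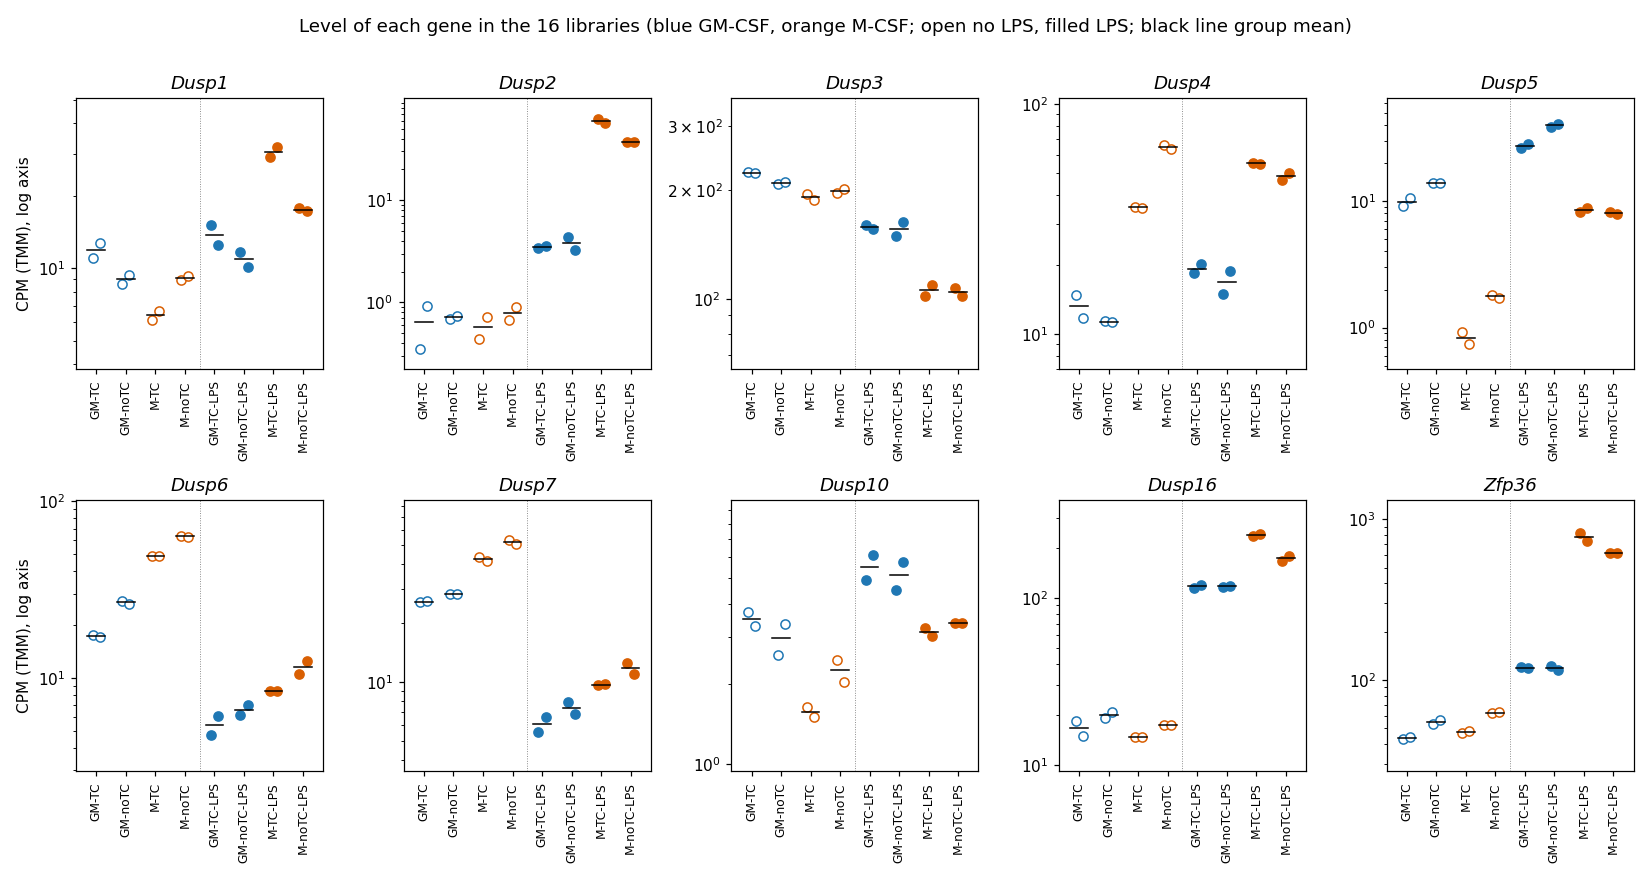
Level of each of the 10 members in the 16 libraries, in CPM after TMM scaling on a log axis with a range of its own in each panel. Points are libraries (blue GM, orange M; open without LPS, filled with LPS), and black lines are group means. Zfp36 and Dusp2 stand highest in the 4 M libraries with LPS, Dusp5 in the 4 GM libraries with LPS, and Dusp6 and Dusp7 are lower in all 8 libraries with LPS than in all 8 without.

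The members spanned very different levels and ranges. Between the lowest and the highest group mean, Dusp2 ranged 103-fold, Dusp5 47.8-fold, Zfp36 17.8-fold and Dusp16 16.1-fold, whereas Dusp10 ranged 3.52-fold and Dusp3 2.12-fold. Per kb of exon (GENCODE vM21 union length), Dusp3 was the most abundant member at steady state, at 40.8 to 47.6 CPM per kb in the 4 groups, and Dusp2 the least, at 0.287 to 0.394 CPM per kb. Upon LPS challenge Zfp36 ranked first in all 4 groups, at 34.3 CPM per kb in GM-TC-LPS and in GM-noTC-LPS, 225 in M-TC-LPS and 179 in M-noTC-LPS. Exons of 4 members overlap those of a gene on the opposite strand, by 11 bases for Dusp1, 125 for Zfp36, 393 for Dusp3 and 547 for Dusp5. Whether counting used strand is not given in the sources used here.

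Whether LPS moved the members was asked in each of the 4 culture conditions. Dusp2, Dusp5, Dusp10, Dusp16 and Zfp36 rose in all 4, and Dusp3, Dusp6 and Dusp7 fell in all 4. In M cells Zfp36 rose 16.5-fold on TC and 9.89-fold on noTC, while in GM cells it rose 2.73-fold and 2.16-fold. At an adjusted p under 0.05, 6 members rose and 3 fell in GM-TC, where 32.8% of all tested genes rose and 34.2% fell. On noTC, 6 GM members rose and 3 fell (33.6% and 34% of all genes). In M cells 7 rose and 3 fell on TC (37.6% and 36.4%), while 6 rose and 4 fell on noTC (36.4% and 35.9%). The median absolute log2 fold change of the members was 1.46 (TC) and 1.32 (noTC) for GM cells and 2.39 and 2.17 for M cells, beside 0.53, 0.52, 0.74 and 0.64 over all genes tested.

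Zfp36, the mRNA decay factor, stood at 43.2 and 44.3 CPM in the libraries of GM-TC and 53.6 and 56.4 in those of GM-noTC, and M cells held 46.7 and 47.9 CPM on TC and 62.1 and 63.5 on noTC. With LPS it stood at 120 and 119 CPM in GM cells on TC and 122 and 116 on noTC, against 822 and 738 for M-TC-LPS and 620 and 622 for M-noTC-LPS. No library with LPS overlapped one without, and the M libraries with LPS lay far above the GM libraries with LPS. The log2 fold change on TC was 1.45 (SE 0.06, adjusted p = 1.9e-15) for GM and 4.04 (SE 0.061, 1.9e-23) for M cells, and on noTC 1.11 (SE 0.058, 1.3e-13) for GM and 3.31 (SE 0.058, 2.6e-22) for M cells. The difference between the growth factors in that response was 2.60 on the log2 scale on TC (SE 0.083, adjusted p = 3.5e-16) and 2.19 on noTC (SE 0.08, 5.5e-15).

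Dusp2, an inducible nuclear phosphatase first known from activated lymphocytes, was close to absent at steady state, at 0.353 to 0.926 CPM in the 8 libraries without LPS. It reached 3.41 and 3.53 CPM in GM-TC-LPS and 4.31 and 3.28 on noTC, while M-TC-LPS held 62.1 and 56.6 CPM and both libraries of M-noTC-LPS 36.9. The rise on TC was 5.15-fold for GM and 102-fold for M cells, and on noTC 5.25-fold and 45.3-fold (adjusted p from 4.5e-19 to 1.6e-07). The response differed between growth factors by 4.30 on the log2 scale on TC (SE 0.47) and 3.11 on noTC (SE 0.4), with adjusted p = 1.6e-07 and 1.7e-06.

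Dusp1, the inducible nuclear phosphatase that acts on p38 and JNK, was at 11.0 and 12.8 CPM in GM-TC and at 15.1 and 12.5 in GM-TC-LPS, so that the groups overlapped. In GM-noTC it was at 8.6 and 9.42 CPM, and in GM-noTC-LPS at 11.7 and 10.1, without overlap. In M-TC it was at 6.1 and 6.66 CPM against 29.1 and 31.8 in M-TC-LPS, and in M-noTC at 8.93 and 9.27 against 17.8 and 17.3 in M-noTC-LPS. Dusp1 thus rose 4.76-fold in M-TC (adjusted p = 4.7e-14) and 1.92-fold in M-noTC (8.4e-08). The log2 fold change in GM-TC was 0.2 (SE 0.12, adjusted p = 0.12) and in GM-noTC 0.27 (SE 0.12, 0.053), and neither passed the test, with 95% intervals of -0.02 to 0.43 and 0.03 to 0.51. With all libraries, the GM-noTC value passed with the size factors of DESeq2 (0.28, adjusted p = 0.046) and with no expression filter (0.29, 0.036). It also passed after the subtraction described below (0.28, 0.048), but was -0.24 (0.074) when scaled by total count alone. The GM-TC value passed without GM-TC replicate 2 (0.32, adjusted p = 0.049) or GM-TC-LPS replicate 2 (0.34, 0.033), and the GM-noTC value without GM-noTC replicate 2 (0.36, 0.046) or GM-noTC-LPS replicate 2 (0.37, 0.033). The growth factors differed in this response by 2.05 on the log2 scale on TC (adjusted p = 1.1e-09) and by 0.67 on noTC (0.0023).

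Dusp5, the nuclear phosphatase specific for ERK, rose in each condition. It stood at 9.09 and 10.5 CPM in GM-TC against 26.3 and 28.1 in GM-TC-LPS, and at 13.8 in both libraries of GM-noTC against 38.9 and 40.7 in GM-noTC-LPS. In M-TC it stood at 0.917 and 0.748 CPM against 8.27 and 8.83 in M-TC-LPS, and in M-noTC at 1.82 and 1.72 against 8.16 and 7.98 in M-noTC-LPS. Its level with LPS in M cells lay below its level without LPS in GM cells in all libraries. The rise was 10.2-fold on TC and 4.57-fold on noTC for M cells, against 2.77-fold and 2.88-fold for GM cells, and the log2 response differed between growth factors by 1.89 on TC (SE 0.21, adjusted p = 1.8e-07) and 0.67 on noTC (SE 0.16, 0.0028).

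Dusp4, a nuclear phosphatase of ERK and JNK, did not move the same way in all conditions. It rose from 14.7 and 11.7 to 18.3 and 20.1 CPM in GM-TC and from 11.4 and 11.2 to 14.9 and 18.7 CPM in GM-noTC. In M-TC it rose from 35.7 and 35.4 to 55.4 and 54.9 CPM, and in M-noTC it fell from 66.1 and 63.7 to 46.7 and 50.2 CPM. The log2 fold change was 0.55 (SE 0.11), 0.57 (SE 0.11), 0.63 (SE 0.084) and -0.42 (SE 0.08) in that order, with adjusted p = 0.00011, 8.5e-05, 6.1e-07 and 6.9e-05. No library of the LPS group overlapped one without LPS in any of the 4.

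Dusp6 and Dusp7, the cytoplasmic phosphatases of ERK, fell together. In GM cells Dusp6 went from 17.4 and 17.0 CPM to 4.71 and 6.08 on TC and from 27.2 and 26.2 to 6.11 and 7.03 on noTC, and in M cells from 48.8 in both libraries to 8.37 and 8.43 on TC and from 63.3 and 63.1 to 10.5 and 12.4 on noTC. Likewise Dusp7 in GM cells went from 25.6 and 26.0 CPM to 5.58 and 6.64 on TC and from 28.2 in both libraries to 7.86 and 6.89 on noTC, and in M cells from 43.5 and 41.4 to 9.65 and 9.76 on TC and from 53.2 and 50.8 to 12.5 and 11.0 on noTC. For both genes the lowest library without LPS was above the highest with LPS. On the log2 scale the change of Dusp6 was -1.66 and -2.02 for GM cells on TC and noTC and -2.54 and -2.46 for M cells, and that of Dusp7 was -2.07 and -1.94 for GM and -2.13 and -2.15 for M cells. Of the pair, Dusp6 fell further in M cells than in GM cells, by 0.88 on TC (adjusted p = 0.0001) and by 0.44 on noTC (0.017), the latter lost without GM-noTC-LPS replicate 2 (-0.34, adjusted p = 0.15) or M-noTC-LPS replicate 1 (-0.33, 0.11). The corresponding difference for Dusp7 was -0.06 on TC and -0.21 on noTC, with 95% intervals of -0.33 to 0.22 and -0.47 to 0.04.

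The phosphatases of JNK and p38 rose, to very different extents. Dusp16 stood at 14.6 to 20.6 CPM in the 8 libraries without LPS, and at 114 to 120 CPM in the 4 GM libraries with LPS. The M libraries with LPS held 234 and 240 CPM on TC and 166 and 179 on noTC. It rose 7.1-fold and 5.91-fold in GM cells on TC and noTC and 16.1-fold and 9.96-fold in M cells, and the growth factors differed by 1.18 on the log2 scale on TC (adjusted p = 1.2e-08) and 0.75 on noTC (3.9e-06). Dusp10 stood at 1.5 to 3.74 CPM without LPS and at 3.02 to 6.13 with LPS, and rose 1.58-fold, 1.72-fold, 2.0-fold and 1.52-fold in the same order. The call of Dusp10 was lost in GM-TC without GM-TC-LPS replicate 2 (log2 fold change 0.49, adjusted p = 0.087), and in M-noTC without M-noTC replicate 2 (0.47, 0.12) or M-noTC-LPS replicate 2 (0.6, 0.051).

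Dusp3, the atypical member, fell modestly but in every condition. Its level was 187 to 224 CPM in the 8 libraries without LPS, 149 to 163 in the GM libraries with LPS and 102 to 109 in the M libraries with LPS, and these 3 ranges did not overlap. The log2 fold change was -0.49 and -0.42 for GM cells on TC and noTC, and -0.85 and -0.92 for M cells. It fell further in M cells, by 0.36 on TC (SE 0.078, adjusted p = 0.00068) and by 0.5 on noTC (SE 0.077, 2.1e-05).

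These directions are relative to the bulk of genes. TMM factors were 1.11 to 1.39 without LPS and 0.778 to 0.842 with it, and scaling by total count alone moved the median log2 fold change of all genes to -0.53 (TC) and -0.54 (noTC) for GM cells and to -0.83 and -0.73 for M cells. Higher calls made up 48.9% to 50.9% of all calls after TMM scaling, and 19% to 21.5% after scaling by total count. On that scale Dusp1 in GM-TC (-0.27, adjusted p = 0.034) and GM-noTC (-0.24, 0.074), Dusp4 in M-TC (-0.19, 0.041) and Dusp10 in M-noTC (-0.12, 0.59) had the opposite sign. The call was lost for Dusp4 in GM-TC (0.07, 0.55) and GM-noTC (0.06, 0.61), Dusp10 in GM-TC (0.18, 0.4), GM-noTC (0.28, 0.2) and M-TC (0.18, 0.48) and Dusp1 in M-noTC (0.22, 0.068). Dusp2, Dusp5, Dusp16 and Zfp36 were called higher and Dusp3, Dusp6 and Dusp7 lower in all 4 conditions on that scale too.

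**Figure D2:**
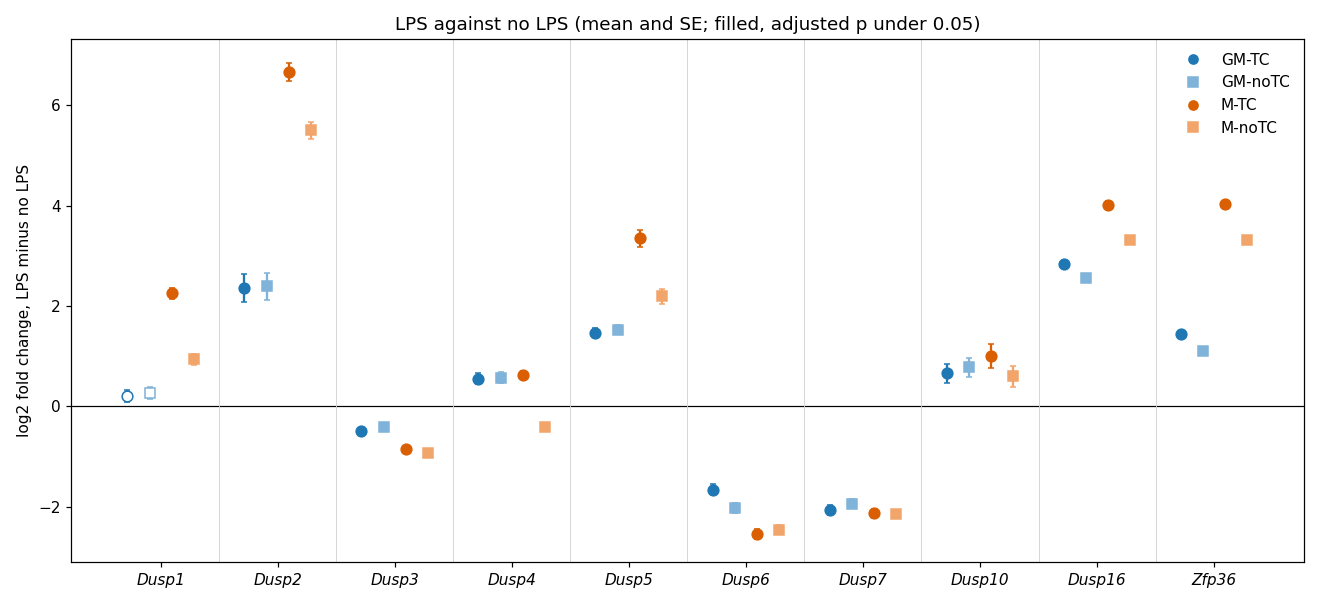
Log2 fold change of each member, LPS minus no LPS, for both growth factors and both dishes (mean and SE from the fit, 2 libraries a group; filled symbols passed an adjusted p under 0.05). Dusp2 reached 6.67 in M-TC, Dusp6 and Dusp7 lay between -2.54 and -1.66, and Dusp4 was positive in 3 conditions and negative in M-noTC. Scaled by total count alone, Dusp1 in GM-TC and GM-noTC, Dusp4 in M-TC and Dusp10 in M-noTC had the opposite sign.

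Which members differed between GM and M macrophages was compared at steady state and upon LPS challenge. At steady state, Dusp4, Dusp6 and Dusp7 were higher and Dusp5 was lower in M cells on both dishes. With LPS all 10 members differed on both dishes, with Dusp1, Dusp2, Dusp4, Dusp6, Dusp7, Dusp16 and Zfp36 higher in M cells and Dusp3, Dusp5 and Dusp10 higher in GM cells. On TC without LPS, 3 members were higher and 4 lower in M cells, where 28.9% and 32.6% of all tested genes were higher and lower. On noTC without LPS, 4 were higher and 2 lower (30.7% and 31.4% of all genes). With LPS, 7 were higher and 3 lower on TC (32.9% and 33.9%), and again 7 and 3 on noTC (32.6% and 33.5%).

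Dusp5 had the largest difference at steady state, 11.8-fold lower in M-TC than in GM-TC (log2 fold change -3.56, SE 0.16, adjusted p = 1.6e-14) and 7.83-fold lower in M-noTC than in GM-noTC (2.1e-15). With LPS it was 3.18-fold lower on TC and 4.93-fold lower on noTC. Dusp4 was 2.71-fold higher in M-TC and 5.74-fold higher in M-noTC, and 2.87-fold and 2.89-fold higher with LPS. The ERK phosphatases of the cytoplasm differed by less, Dusp6 by 2.84-fold on TC and 2.37-fold on noTC without LPS and by 1.55-fold and 1.74-fold with LPS, and Dusp7 by between 1.58-fold and 1.84-fold in the 4 comparisons.

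Zfp36 differed little between the growth factors at steady state and by a large fold upon LPS challenge. The log2 difference of M from GM was 0.11 on TC (95% interval -0.01 to 0.24, adjusted p = 0.12) and 0.19 on noTC (0.08 to 0.31, 0.007), and with LPS it was 2.71 on TC (SE 0.057) and 2.39 on noTC (SE 0.056). Dusp2 followed the same order, with steady state differences of -0.21 (-0.99 to 0.57) and 0.17 (-0.47 to 0.82), and with 17.1-fold higher levels in M-TC-LPS and 9.73-fold higher levels in M-noTC-LPS. Dusp16 was 2.02-fold higher in M-TC-LPS and 1.47-fold higher in M-noTC-LPS.

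Dusp1 changed direction between the states, being 1.87-fold lower in M-TC than in GM-TC (adjusted p = 1.5e-06) and 2.21-fold higher in M-TC-LPS than in GM-TC-LPS (3.4e-09). On noTC its log2 difference without LPS was 0.01 (95% interval -0.21 to 0.24), and it was 1.61-fold higher in M cells with LPS. Dusp10, the least variable of the inducible members, was 2.24-fold lower in M-TC than in GM-TC, 1.76-fold lower with LPS on TC and 1.51-fold lower with LPS on noTC, the last lost without GM-noTC-LPS replicate 2 (-0.41, adjusted p = 0.15). Its steady state difference on noTC (-0.42, adjusted p = 0.08) did not pass, but did without GM-noTC replicate 1 (-0.58, 0.045).

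Small steady state differences depended on 1 library or on scaling. Dusp16 in M-noTC against GM-noTC (-0.2, adjusted p = 0.041) lost its call without any 1 of the 4 libraries, GM-noTC replicate 1 (-0.24, 0.051), GM-noTC replicate 2 (-0.12, 0.34), M-noTC replicate 1 (-0.18, 0.13) or M-noTC replicate 2 (-0.18, 0.16), while on TC its -0.17 (adjusted p = 0.11) passed without GM-TC replicate 2 (-0.32, 0.0077). Zfp36 on noTC lost its call without GM-noTC replicate 1 (0.17, 0.067). Scaling by total count alone moved the median of all genes to 0.29 on both dishes without LPS, and the share of higher calls from 47% to 72.1% on TC and from 49.4% to 72.5% on noTC. On that scale Dusp3 on TC (0.09) and noTC (0.21) and Dusp16 on TC (0.14) and noTC (0.09) had the opposite sign, as did Dusp2 on TC (0.10). Zfp36 on TC passed on that scale (0.43, adjusted p = 5.3e-06), as did Dusp1 on noTC (0.3, 0.023). That value of Zfp36 also passed with the size factors of DESeq2 (0.16, 0.03) and by DESeq2 (0.16, 0.045), but under no other alternative.

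**Figure D3:**
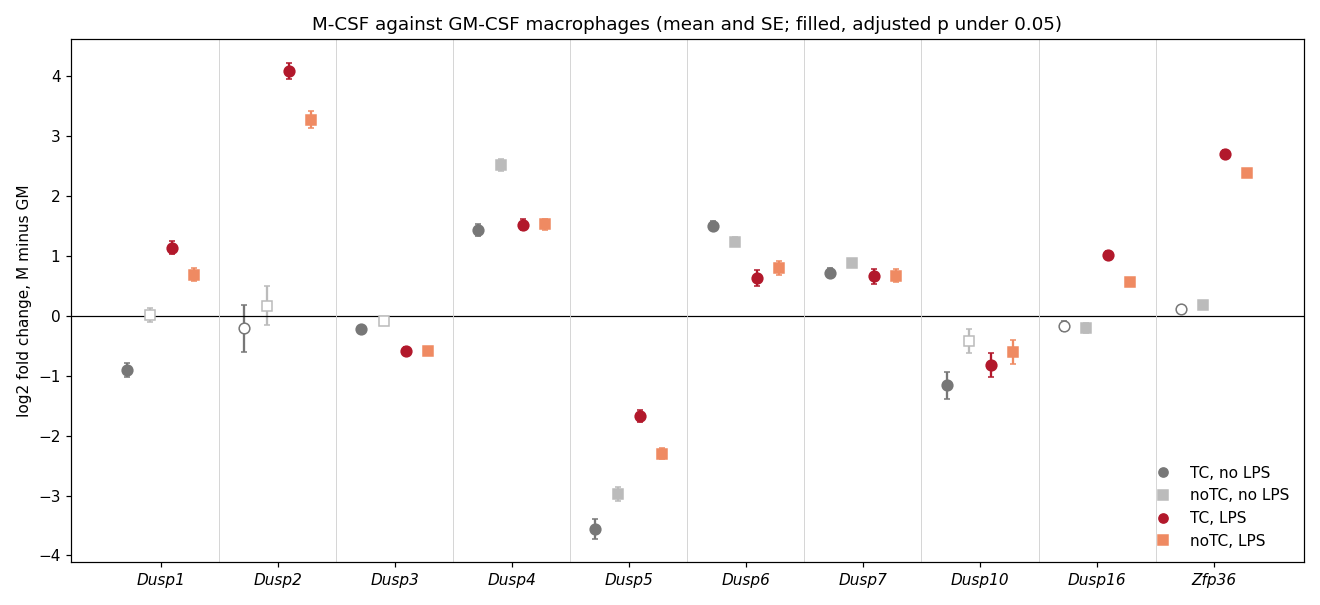
Log2 fold change of each member, M minus GM, on TC and noTC dishes with and without LPS (mean and SE from the fit, 2 libraries a group; filled symbols passed an adjusted p under 0.05). Dusp5 is lower in M cells throughout (-3.56 to -1.67), Dusp4 higher throughout (1.44 to 2.52), and Zfp36 and Dusp2 lie near 0 without LPS and between 2.39 and 4.09 with it. Scaled by total count alone, Dusp3 and Dusp16 without LPS on both dishes and Dusp2 on TC without LPS had the opposite sign.

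Whether the dish surface altered the members was tested within each growth factor and state. In M cells without LPS, Dusp1, Dusp4, Dusp5, Dusp6, Dusp7, Dusp16 and Zfp36 were higher on noTC and none was lower, whereas with LPS Dusp1, Dusp2, Dusp16 and Zfp36 were lower on noTC and Dusp6 was higher. In M cells without LPS, 7 of 10 members were thus called higher where 16.1% of all genes were (11.1% lower), and with LPS 1 was higher and 4 were lower (10.4% and 12.9% of all genes). In GM cells without LPS, Dusp5, Dusp6 and Zfp36 were higher on noTC and Dusp1 was lower, 3 and 1 of 10, against 4.69% and 2.85% of all genes. Of these, 1, Dusp6, passed in a fit of only those 4 libraries. In GM cells with LPS only Dusp5 of the 10 members passed, being higher, against 2.08% of all genes higher and 0.727% lower.

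Dusp4 and Dusp5 had the largest dish differences in M cells at steady state. Dusp4 was at 35.7 and 35.4 CPM in M-TC against 66.1 and 63.7 in M-noTC, 1.83-fold higher (adjusted p = 3.9e-08), and Dusp5 at 0.917 and 0.748 against 1.82 and 1.72, 2.11-fold higher (0.0005). Dusp5 was the member higher on noTC in GM cells in both states, 1.41-fold without LPS (adjusted p = 0.0026) and 1.46-fold with LPS (0.00028). In M cells with LPS its log2 difference was -0.08 (95% interval -0.31 to 0.15).

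Dusp6 was higher on noTC in 3 of the 4 comparisons, by 1.55-fold in GM cells (adjusted p = 3.5e-05), 1.29-fold in M cells (0.00039) and 1.36-fold in M cells with LPS (0.0067), the last lost without M-noTC-LPS replicate 2 (log2 0.32, adjusted p = 0.11). Dusp7 was 1.23-fold higher on noTC in M cells without LPS (0.0027), lost without M-noTC replicate 1 (log2 0.26, 0.053) or M-TC replicate 2 (0.25, 0.057). Its difference in M cells with LPS (0.27, 0.069) passed without M-noTC-LPS replicate 2 (0.37, 0.049).

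Zfp36 was 1.26-fold higher on noTC in GM cells and 1.33-fold higher in M cells at steady state (adjusted p = 0.0012 and 1.6e-05). With LPS its log2 difference in GM cells was 0.0 (95% interval -0.11 to 0.11), and it was 1.26-fold lower on noTC in M cells (7.4e-05). Dusp1 and Dusp2 in M cells with LPS were 1.73-fold and 1.61-fold lower on noTC (7.1e-06 and 4.3e-05), and Dusp16 was 1.38-fold lower (1.1e-05). Without LPS Dusp1 was 1.43-fold higher on noTC in M cells (0.003) and 1.33-fold lower in GM cells (0.038), and the latter was lost without GM-noTC replicate 1 (log2 -0.35, 0.27), GM-noTC replicate 2 (-0.48, 0.09) or GM-TC replicate 2 (-0.29, 0.31).

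Dusp16 was higher on noTC in M cells without LPS by 1.18-fold (adjusted p = 0.041), and this call was lost without any 1 of the 4 libraries M-TC replicate 1 (log2 0.23, 0.16), M-TC replicate 2 (0.23, 0.18), M-noTC replicate 1 (0.23, 0.15) and M-noTC replicate 2 (0.23, 0.16). In GM cells its 0.26 (adjusted p = 0.069) passed without GM-TC replicate 1 (0.41, 0.0036). Dusp3 was not called in any dish comparison, with log2 differences from -0.09 to 0.05 and 95% intervals that together spanned -0.19 to 0.16. Dusp10 was not called in any either, with differences from -0.23 to 0.51.

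The noTC libraries without LPS also held reads of genes that were nearly absent from the TC libraries without LPS. For each growth factor, genes below 1 CPM in its TC libraries without LPS and at a mean of 100 CPM or more elsewhere were taken. Elsewhere means all libraries except those of GM-TC, M-TC and the noTC group in question, so that most of them had LPS. Choosing genes for low values in the TC libraries favours an excess of noTC over TC. The median excess of GM-noTC over GM-TC was 0.675% of the mean elsewhere (15 genes), and that of M-noTC over M-TC 0.6% (19 genes). That share of a member's own mean elsewhere amounts to 14.1% of the level of Dusp2 in GM-noTC and 9.26% in M-noTC, 4.05% of Dusp5 in M-noTC, and at most 3.27% of any other member there. After its subtraction the calls on the dish kept their direction, and that of Dusp16 in M cells was lost (log2 0.2, adjusted p = 0.085). Il6, which the paper reports as higher on noTC at steady state, meets the rule for these genes. Neither the excess nor the subtraction can therefore tell stray reads from expression in the noTC cells.

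In M cells the log2 difference between LPS and no LPS was not the same on both dishes. This log2 response was lower on noTC for Dusp1 by 1.31 (SE 0.16, adjusted p = 9.6e-06), Dusp5 by 1.16 (SE 0.24, 0.0031), Dusp4 by 1.05 (SE 0.12, 2.4e-06), Zfp36 by 0.74 (SE 0.079, 1.7e-06) and Dusp16 by 0.7 (SE 0.1, 0.00011). For Dusp2 it was smaller by 1.17 (SE 0.36, 0.04), a call lost without M-noTC replicate 1 (-1.32, 0.054), M-noTC replicate 2 (-0.89, 0.32), M-noTC-LPS replicate 1 (-1.17, 0.07), M-noTC-LPS replicate 2 (-1.16, 0.067), M-TC replicate 1 (-0.86, 0.26), M-TC replicate 2 (-1.55, 0.054) or M-TC-LPS replicate 1 (-1.1, 0.091), and after the subtraction (-1.04, 0.079). These 6 of 10 stood against 10.6% of all genes. The response of Dusp4 was 0.63 on TC and -0.42 on noTC, so that it turned rather than shrank. For Dusp5 and Dusp4 the dishes differed without LPS, by 1.08 and 0.87 on the log2 scale. With LPS their dish differences were -0.08 and -0.19, and neither passed (adjusted p = 0.68 and 0.12).

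In GM cells 0 of 10 members passed this test by edgeR, against 0.783% of all genes. An unadjusted p under 0.05 was found for 3 members, beside 1107 of all 12514 tested genes. DESeq2 called 1 member, Zfp36 (-0.34, adjusted p = 0.031), and of all genes it called 29 higher and 89 lower. Without GM-TC replicate 1, Zfp36 (-0.31, 0.04) and Dusp16 (-0.4, 0.028) passed. Of the growth factor by LPS differences, 7 of 10 passed on TC and 8 of 10 on noTC, against 41.1% and 36.2% of all genes. Of the dish by growth factor differences, 2 of 10 passed without LPS, Dusp1 (0.92) and Dusp4 (1.08), against 11.2% of all genes, and 4 of 10 with LPS, Dusp2 (-0.81), Dusp5 (-0.63), Dusp16 (-0.46) and Zfp36 (-0.32), against 10.6%. That of Dusp2 was lost without GM-noTC-LPS replicate 1 (-0.61, adjusted p = 0.18), GM-TC-LPS replicate 1 (-0.79, 0.081), GM-TC-LPS replicate 2 (-0.84, 0.066), M-noTC-LPS replicate 1 (-0.81, 0.05) or M-TC-LPS replicate 1 (-0.74, 0.076), and that of Zfp36 without M-TC-LPS replicate 1 (-0.24, 0.055).

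Scaling by total count alone moved the share of higher calls among all genes from 44.5% to 70.5% for the dish in M cells with LPS, from 29.4% to 61.1% for the dish by LPS difference in M cells, from 35% to 67.1% for the dish by growth factor difference with LPS, and from 56.8% to 21.1% and from 53.4% to 26.8% for the growth factor by LPS difference on TC and noTC. None of the members' called values in these 5 comparisons had the opposite sign on that scale, but uncalled values did, those of Dusp3 (0.08) and Dusp5 (0.01) for the dish in M cells with LPS, Dusp3 (0.04) and Dusp7 (0.08) for the dish by LPS difference in M cells and Dusp4 (-0.26) for the growth factor by LPS difference on TC. The calls of Dusp2 for the dish by LPS difference in M cells (-1.06, adjusted p = 0.069) and Zfp36 for the dish by growth factor difference with LPS (-0.22, 0.082) were lost.

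**Figure D4:**
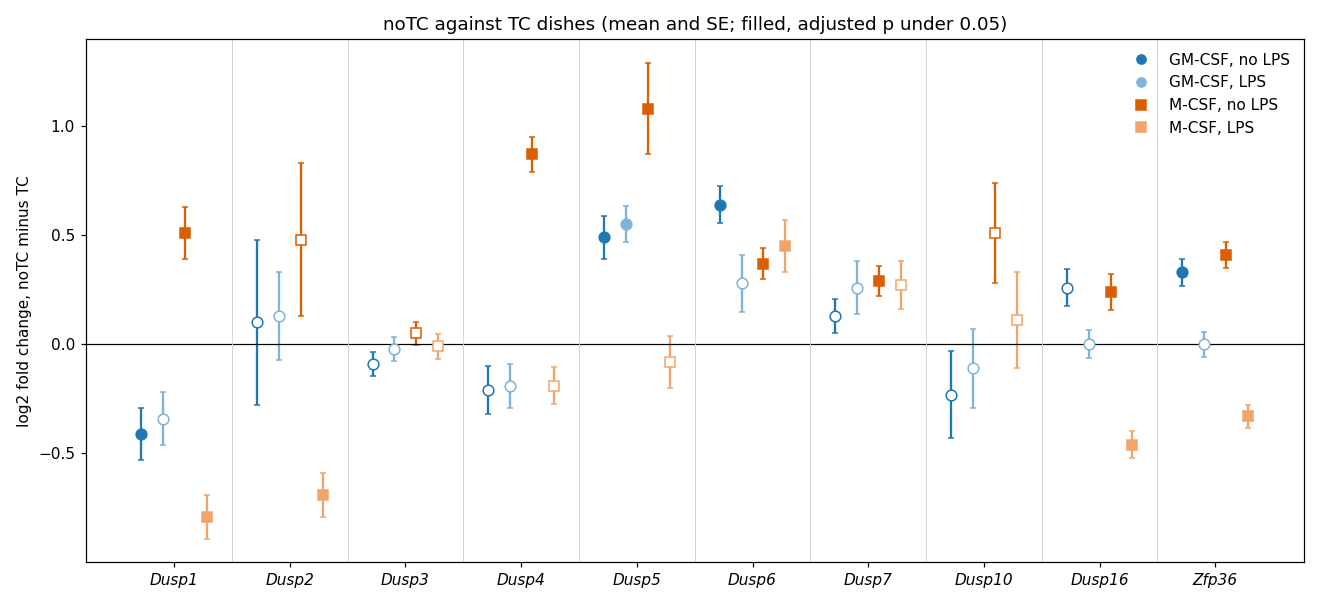
Log2 fold change of each member, noTC minus TC, in GM and M cells with and without LPS (mean and SE from the fit, 2 libraries a group; filled symbols passed an adjusted p under 0.05). In M cells Dusp1 lies at 0.51 without LPS and -0.79 with LPS, Dusp4 at 0.87 and -0.19, and Zfp36 at 0.41 and -0.33, while Dusp5 in GM cells lies at 0.49 and 0.55.

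The genes most like each member over the 16 libraries were found by Pearson's r of log2 CPM among 9201 other genes at a mean of 5 CPM or more, as a description of libraries that fall into LPS and growth factor groups. Dusp16 was closest to Socs7 (r = 0.998), Brd2 (0.997) and Larp1 (0.997), and Zfp36 to Usp7 (0.995), Prpf4 (0.993) and C9orf72 (0.991). Dusp2 was closest to Cdc37 (0.991), Nras (0.991) and Errfi1 (0.99), and to Zfp36 among the members (0.992). Dusp7 was closest to Nfic (0.994) and Fads1 (0.99), and Dusp6 to Tbc1d31 (0.988), Cdca2 (0.985) and Kif20a (0.984), with r = 0.98 between these phosphatases. Dusp5 was closest to Lsp1 (0.992), Slc7a2 (0.99) and Plpp3 (0.989), Dusp10 to Ccl22 (0.963), Ahcyl1 (0.962) and Mdm2 (0.956), and Dusp3 to Rassf3 (0.991), Sec22c (0.99) and Narf (0.989). Dusp4 was closest to Afg3l1 (0.971), Lmf2 (0.971) and B4galt6 (0.968), and Dusp1, with the lowest top value of the 10, to Mat2a (0.937), Pfkfb3 (0.933) and Agpat4 (0.933).

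Of 17 other dual specificity and related phosphatases listed, 12 were tested. Among them 4 rose and 4 fell in GM cells on TC and 4 and 3 on noTC, and in M cells 4 and 5 did on TC and 4 and 4 on noTC. Of all tested genes 32.8% to 37.6% rose and 34% to 36.4% fell in these comparisons, and these shares also stand beside the counts of the lists that follow. In that order their median log2 fold changes were -0.31, -0.11, -0.41 and -0.08, beside -0.05, -0.03, -0.01 and -0.01 over all genes, which also stand beside the medians of the lists that follow. Dusp8, which acts on JNK and p38, rose from 0.822 to 5.24 CPM in GM-TC and from 0.716 to 4.81 in M-TC, and Dusp28 from 4.81 to 6.76 and from 4.7 to 12.2. Dusp18 fell from 17 to 3.97 CPM in GM-TC and from 9.87 to 1.36 in M-TC, and Dusp22 from 15.2 to 12 and from 26 to 10.4.

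Of 31 listed genes, MAP kinases, their upstream kinases and the adaptors Tab1, Tab2 and Tab3, 29 were tested. In GM cells 12 rose and 10 fell on either dish, and in M cells 15 and 11 did on TC and 14 and 12 on noTC, with medians from 0.05 to 0.18. Map3k8, the kinase that feeds ERK after Toll-like receptor ligation, rose from 19.3 to 116 CPM in GM-TC and from 25.1 to 169 in M-TC, and Map2k4, a kinase of JNK, from 72.7 to 220 and from 44 to 226. Mapk7 fell from 23.2 to 14.4 and from 30 to 7.02 CPM, and Map3k4 from 19.5 to 6.7 and from 24.2 to 7.78.

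All 10 listed MAP kinase-activated kinases were tested, of which 5 rose and 3 fell in GM cells on TC and 7 and 3 on noTC, and in M cells 6 and 4 did on TC and 6 and 3 on noTC, with medians of 0.19, 0.23, 0.58 and 0.51 in that order. Mapkapk2, the p38-activated kinase that phosphorylates tristetraprolin, rose from 195 to 1420 CPM in GM-TC and from 394 to 2870 in M-TC. Rps6ka2 rose from 242 to 435 and from 27.4 to 69.8 CPM. Mknk2 fell from 116 to 25.7 and from 113 to 17.4, and Rps6ka1 from 108 to 48.6 and from 110 to 44.2 CPM.

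Of 20 listed feedback and target genes of ERK, 19 were tested, and upon LPS challenge 6 were higher and 4 lower in GM cells on TC and 6 and 8 on noTC, and in M cells 10 and 4 on TC and 7 and 8 on noTC. The medians were 0.42, -0.42, 0.76 and -0.2 in that order. Il17rd, an inhibitor of ERK signalling, went from 0.0201 to 1.76 CPM in GM-TC, a start below the limit of detection, and from 0.365 to 9.41 in M-TC. Spry1, another such inhibitor, rose from 2.18 to 11.8 CPM in GM-TC. In M-TC it was at 0.0773, below the limit of detection of those libraries, and at 0.926 with LPS. Ccnd1, the D-type cyclin, fell from 11.2 to 5.57 and from 51.1 to 14.1 CPM. On noTC without LPS, 7 of the 19 were higher and 0 lower in GM cells (median 0.48) and 12 higher and 0 lower in M cells (median 1.16), beside medians of 0 and 0.01 over all genes, of which 4.69% were higher and 2.85% lower in GM cells and 16.1% and 11.1% in M cells. Ccnd1 was among both, at 20 CPM in GM-noTC and 211 in M-noTC. These counts were also 7 and 12 after the subtraction described for the members, which was applied to the lists after their values were seen. Of all genes, 498 in GM cells and 1930 in M cells were higher after it.

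Of the Zfp36 family and the machinery of mRNA decay, 34 of 35 listed genes were tested, with 15 higher and 10 lower in GM cells on TC and 15 and 12 on noTC, 16 and 16 in M cells on TC and 15 and 17 on noTC, and medians from -0.19 to 0.09. Both relatives of tristetraprolin named by the rule went the other way from it, as Zfp36l2 fell from 284 to 70.7 CPM in GM-TC and from 347 to 10.9 in M-TC, and Zfp36l1 from 46.3 to 24.1 and from 64 to 15.2. On noTC Zfp36l2 fell from 278 to 61.7 CPM in GM and from 303 to 13.3 in M cells. Zfp36l1 fell there only from 44.4 to 38.6 CPM in GM cells (log2 -0.2, adjusted p = 0.044), and from 44.8 to 11.1 in M cells. Of the 4 regnase genes, Zc3h12a rose from 18.8 to 302 CPM in GM-TC and from 19 to 161 in M-TC, and Zc3h12c from 33.3 to 243 and from 36.9 to 482. The other 2 did not rise, as Zc3h12d, picked after its values were seen, fell from 24.3 to 5.81 CPM in M-TC and was at 3.8 and 3.32 in GM-TC, and Zc3h12b was below 1 CPM in all groups.

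Messages that tristetraprolin is known to bind rose nearly throughout. Of 20 listed, 18 were tested, with 16 higher and 1 lower in GM-noTC and 17 higher and 1 lower in the other 3 conditions, and medians of 7.68 and 6.65 for GM cells on TC and noTC and 8.73 and 6.6 for M cells. With the genes at 0 counts in a whole group set to the limit of detection, the medians in GM-TC and M-TC were 7.56 and 8.2. Il6 was at 2020 CPM in GM-TC-LPS and 1490 in M-TC-LPS, from 0.252 and 0.0199 CPM, the latter below the limit of detection. Cxcl1 was at 643 and 582 CPM, from 0.131 and 0.19 CPM. Plau, the urokinase gene, fell from 249 to 72 CPM in GM-TC and from 16.3 to 7.71 in M-TC. In the dish comparison without LPS, 12 of the 18 were higher and 0 lower in GM-noTC (4.69% and 2.85% of all genes) and 13 higher and 1 lower in M-noTC (16.1% and 11.1%). After the subtraction described for the members, 6 were higher and 0 lower in GM-noTC, and 6 higher and 1 lower in M-noTC. Of all genes, 498 were then higher and 345 lower in GM-noTC, and 1930 and 1422 in M-noTC.

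Scaled by total count alone, the tristetraprolin-bound messages gave the same counts upon LPS challenge. The other lists leaned lower over the 4 conditions, as all genes did on that scale. Of all 12514 tested genes, 2012 to 2149 were then higher and 7841 to 8648 lower. The other phosphatases then had 2 to 3 higher and 7 to 8 lower. The MAP kinases, upstream kinases and adaptors had 6 to 10 higher and 16 to 20 lower. The MAP kinase-activated kinases had 3 to 4 and 6, the ERK genes 5 to 7 and 7 to 11, and the mRNA decay genes 7 to 9 and 21 to 26. Of the listed genes named above, Dusp28 lost its call in GM cells on that scale, at a log2 fold change of 0 on TC (adjusted p = 0.99) and 0.01 on noTC (0.93).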

How the data were processed

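Poly(A) RNA of 16 BMDM libraries was sequenced on a NovaSeq 6000. The deposited values are expected counts per gene, which the authors made with RSEM. The submitters' processing notes name fastp 0.18.0, Bowtie2 2.2.8, HISAT2, StringTie 1.3.1, RSEM, DESeq2 and edgeR; the genome build and annotation are not given in the sources used here. Of all values, 6.56% to 8.19% per library were not whole, and counts were rounded.

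Genes were kept by filterByExpr (12514 of 22287), scaled by TMM and fitted with edgeR 4.0.16 in R 4.3.3, the quasi-likelihood test over all 16 libraries and 8 groups sharing 1 spread (common dispersion 0.00226). The 18 contrasts were tested with Benjamini-Hochberg adjustment over all tested genes, and called at an adjusted p under 0.05. SE are those of the fit, and 95% intervals assume normality. Scripts were tested on simulated data. With 2 libraries against 2, an exact two-sided permutation test cannot go below p = 0.333, so no single-gene permutation test was made.

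Alternatives were DESeq2 1.42.0, its size factors, library size only, no expression filter, the libraries of a comparison alone, the replicate block, the study's call rules (a fold change above 2, or 1.5 for the dish with LPS, with an unadjusted p under 0.05), the subtraction described above and leaving out each library. The members and lists were chosen with earlier results of these data known. All 10 members are named, and from each list up to 2 genes per direction called alike in the 4 LPS contrasts with the largest mean change, at 5 CPM or more. For each member the 3 genes with the highest Pearson's r are named, except 1 gene that is not reported here. Promoters came from RefSeq (GRCm38.p6), exon lengths and 3′ regions from GENCODE vM21; lengths matched for 12511 of the tested genes.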

Additional observations from a re-analysis of the deposited data

Results flagged for a closer look

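Differences between groups in how a member responded, each tested as an interaction by edgeR with adjusted p under 0.05, are given here as log2 values with no explanation. The response to LPS differed between M and GM cells on TC for Dusp1 (2.05), Dusp2 (4.30), Dusp3 (-0.36), Dusp5 (1.89), Dusp6 (-0.88), Dusp16 (1.18) and Zfp36 (2.60). On noTC it differed for Dusp1 (0.67), Dusp2 (3.11), Dusp3 (-0.50), Dusp4 (-0.99), Dusp5 (0.67), Dusp6 (-0.44), Dusp16 (0.75) and Zfp36 (2.19). In M cells the response differed between noTC and TC for Dusp1 (-1.31), Dusp2 (-1.17), Dusp4 (-1.05), Dusp5 (-1.16), Dusp16 (-0.70) and Zfp36 (-0.74). The difference between dishes itself differed between M and GM cells without LPS for Dusp1 (0.92) and Dusp4 (1.08), and with LPS for Dusp2 (-0.81), Dusp5 (-0.63), Dusp16 (-0.46) and Zfp36 (-0.32).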

How the results depend on the processing

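The number of members called was within 1.5 times of the reported one in 128 recomputed counts and not in 18, and in 94 of 96 counts that left out 1 library. The study's rule of a fold change above 2 with an unadjusted p under 0.05, in place of the adjusted p, gave fewer members, 6 for LPS in M-noTC, 4, 6, 3 and 4 for M minus GM on TC, TC with LPS, noTC and noTC with LPS, 0, 0, 1 and 0 for the dish in GM, GM with LPS, M and M with LPS, 2 for growth factor by LPS on noTC, and 1 and 0 for dish by growth factor without and with LPS. With a fold change above 1.5, which the study used for the dish with LPS (added after seeing the data), the counts there were 0 in GM and 2 in M. How many of all genes passed these rules on fold change was not counted, so no share stands beside these member counts. The libraries of the comparison alone gave 1 for the dish in GM. For dish by LPS in GM, library size only, no expression filter and DESeq2 gave 1 each in place of 0. Leaving out 1 library gave 0 to 2 there (2 without GM-TC replicate 1) and 2 to 4 for dish by growth factor with LPS (2 without M-TC-LPS replicate 1), and such a fit assumes that a lone library varies like the other groups. Under library size only, the sign turned, where the value passed the test on either scale, for Dusp1 in GM-TC (-0.27), Dusp4 in M-TC (-0.19) and Dusp10 in M-noTC (-0.12) upon LPS, for M minus GM in Dusp3 on TC (0.09) and noTC (0.21) and in Dusp16 on noTC (0.09). Leaving aside the rules on fold change, 30 of 38 calls on LPS held under every alternative, of those on growth factor 29 of 33, on the dish 11 of 17, and on interactions 23 of 27. DESeq2 did not call Dusp10 for LPS in M-noTC (0.6, adjusted p = 0.052) or for M minus GM on noTC with LPS (-0.59, 0.057), nor Dusp1 for the dish in GM (-0.39, 0.13) or Dusp16 for the dish in M (0.22, 0.098). Same-numbered libraries did not deviate together (correlations -0.0636 to 0.02), and whether they share a mouse or a preparation is not given in the sources used here, so they were not taken as paired. The fit with a replicate block left the number of calls as it was in all 18 comparisons (9 for LPS in GM-TC, for example). At the depth of these libraries Dusp2 at steady state rested on as few as 7 counts.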
